A study of Mus musculus with 9 samples.

Results

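The expression of 10 genes that build or mark the progenitors of blood and vessels was followed in mouse embryoid bodies (EBs) exposed to silver. The genes were Etv2, Tal1, Lmo2, Gata1, Gata2, Runx1, Fli1, Erg, Cdh5 and Pecam1, taken by symbol from the annotation of the array, and all 10 were found, each with 1 probe set that names no other gene, among 22184 genes with a probe set of their own. EBs are aggregates in which embryonic stem cells (ESCs), here of a C57BL/6 mouse line, begin to differentiate once the factors that hold them pluripotent are withdrawn. From day 3 they were kept for 24 h with AgNPs (silver nanoparticles of 20 nm) at 5.0 µg/ml, with Ag+ (ionic silver) at 5.0 µg/ml, or without silver as unexposed controls. Each group held 3 arrays labelled as biological replicates, and all 3 groups came from the same C57BL/6 ESCs. EBs are mixed cultures, here of 1 line, and the RNA is that of whole EBs.

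Blood and endothelium arise together in the early embryo, from mesoderm that carries the VEGF receptor Kdr. Etv2, an ETS transcription factor, switches on the program in this mesoderm, and Tal1, Lmo2 and the GATA factors then assemble in shared complexes on blood and endothelial genes. Runx1 is required for blood stem cells to emerge from endothelium, Fli1 and Erg are ETS factors that maintain both lineages, and Cdh5 and Pecam1 encode adhesion molecules of the endothelial junction. Pecam1 is also carried by undifferentiated mouse ESCs.

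Values are signals on the log2 scale, so that a difference of 1 is a doubling or halving. The 9-array means of the 10 genes ran between 4.09 and 5.76, where the median over the 25341 named probe sets was 5.06, and 5 of the 10 lay below that median. Probes differ in how strongly they bind, so these signals do not rank the genes by amount of RNA, and low signals compress differences. The spread between replicates, taken as the pooled SD within groups, had a median of 0.12 over the 10 genes and 0.11 over all named probe sets. The arrays correlated with each other at 0.991 to 0.996, and no 2 of them were identical.

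Runx1 was the 1 gene of the 10 that passed the test: its signal was lower with Ag+ than in controls, by 1.86-fold. The other 9 genes did not pass in any of the 3 comparisons. At an adjusted p of 0.05, 0 of 10 genes passed for AgNP minus control (0.0868% of all named probe sets passed), 1 for Ag+ minus control (2.28%) and 0 for AgNP minus Ag+ (0.509%). Without adjustment, at p under 0.05 in limma, 2 genes passed in the first comparison (Etv2 and Runx1, against 8.44% of all named probe sets), 3 in the second (Lmo2, Gata2 and Runx1, against 13.8%) and 3 in the third (Tal1, Gata1 and Runx1, against 8.31%). The thresholds of the study's methods, a fold of at least 1.5 with an unadjusted p under 0.05, gave 0, 1 and 0 genes, while 0.454%, 1.67% and 0.758% of all named probe sets passed them. Arrays of the compared groups did not overlap for 3 genes between AgNP and control (Etv2, Lmo2 and Runx1, where 10.9% of all named probe sets did not overlap). They did not overlap for 2 genes between Ag+ and control (Lmo2 and Runx1, against 16.5% of all) and for 2 between AgNP and Ag+ (Gata1 and Runx1, against 12.3%). Median differences over the 10 genes were −0.06 for AgNP minus control, −0.03 for Ag+ minus control and −0.08 for AgNP minus Ag+, and −0.0082, −0.0036 and 0.00036 over all named probe sets. The comparisons with control share the same 3 control arrays.

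Runx1 encodes the DNA-binding subunit of the core binding factor, which opens the blood program in endothelium. Its probe set reports the gene as a whole, while Runx1 is transcribed from a distal and a proximal promoter. The 250 bases before each start in the RefSeq table (GRCm38.p6) are shown because this is the gene on which the comparison turns. The distal window lies at chr16:92826075-92826324 and the proximal window at chr16:92697330-92697579, both on the minus strand and written 5′ to 3′ in the direction of the gene. Capitals mark the letters of an ETS motif, searched as CCGGAA or AGGAAG on both strands.
Runx1 distal promoter: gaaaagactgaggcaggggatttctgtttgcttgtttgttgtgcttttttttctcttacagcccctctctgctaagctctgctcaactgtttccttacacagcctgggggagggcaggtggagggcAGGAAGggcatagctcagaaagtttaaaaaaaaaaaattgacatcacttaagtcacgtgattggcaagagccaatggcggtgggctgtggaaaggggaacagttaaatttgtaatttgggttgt
Runx1 proximal promoter: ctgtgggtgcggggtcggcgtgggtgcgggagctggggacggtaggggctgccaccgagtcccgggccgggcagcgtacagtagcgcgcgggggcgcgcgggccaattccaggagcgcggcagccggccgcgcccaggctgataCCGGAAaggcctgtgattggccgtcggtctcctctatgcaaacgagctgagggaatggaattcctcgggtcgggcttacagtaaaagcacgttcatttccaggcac
The distal window held AGGAAG with its first base 124 bases before the start, and the proximal window held CCGGAA at 106 bases before it. Of 32851 promoter windows of this length, 38.2% held an ETS motif, so that such a match is common. Neither Runx1 window held a GATA motif (AGATAA or TGATAA, in 16.6% of windows), a RUNX motif (TGTGGT or TGCGGT, in 18.6%) or the E-box forms CAGCTG or CATCTG (in 25.5%), and other forms of the E-box were not searched. Windows were found for 6 of the 10 genes, namely Etv2, Tal1, Gata1, Gata2, Runx1 and Erg. Of these 6 genes, 4 held an ETS motif and 2 a GATA motif in any of their windows. A gene can have several windows, so these counts by gene are not to be set beside the shares of windows above. By window, 5 of 11 held an ETS motif, 2 a GATA motif and 0 a RUNX motif or any of these E-box forms. These are matches of letters and not measured binding.

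The Runx1 signal was 5.49, 5.54 and 5.51 in AgNP-exposed EBs, 5.25, 5.29 and 4.92 in Ag+-exposed EBs, and 6.03, 6.25 and 5.86 in control EBs. The 3 groups did not overlap on any array, with Ag+ lowest, AgNP between and control highest, and the AgNP arrays lay closest together. Means were 5.51 ± 0.026 with AgNPs, 5.15 ± 0.20 with Ag+ and 6.05 ± 0.19 in controls (SD, n = 3 each). The log2 difference Ag+ minus control was −0.90 (SE 0.12, 95% interval −1.16 to −0.63, limma adjusted p = 0.0045 by Benjamini-Hochberg over all named probe sets). With AgNPs the difference from control was −0.54 (−0.80 to −0.27), which is 1.45-fold lower, and it did not pass the test after adjustment (limma adjusted p = 0.23). AgNP minus Ag+ was 0.36 (0.10 to 0.62), or 1.28-fold higher with AgNPs, and did not pass either (limma adjusted p = 0.38), so the 2 silver treatments are not shown to differ in Runx1. The call with Ag+ held whichever array was left out, at −0.99 to −0.78, but not under the methods' t-test with the same adjustment, which gave an adjusted p of 0.46. In that setting 0 of all named probe sets passed for Ag+ minus control, so the miss does not set Runx1 apart from other genes. An exact permutation test of 3 arrays against 3 cannot give a p below 0.1. In bulk EBs, fewer cells that express a gene and less of its RNA per cell cannot be told apart.

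**Figure D1:**
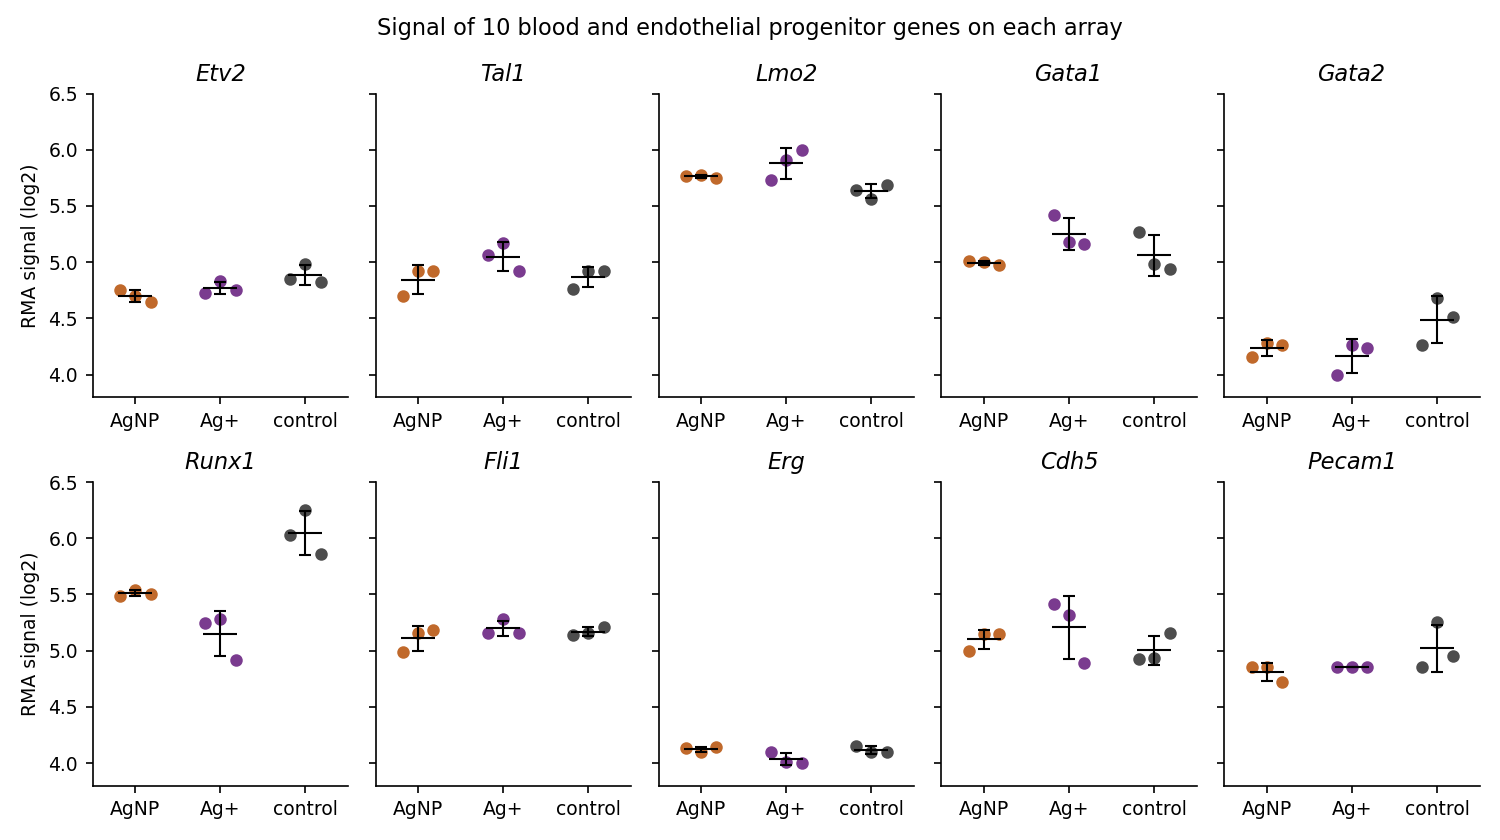
Log2 signal of each of the 10 genes on every array, with points for single arrays, horizontal lines for group means and error bars for the SD (n = 3), in the order AgNP, Ag+ and control. The groups stand apart for Runx1, at 5.49 to 5.54 with AgNPs, 4.92 to 5.29 with Ag+ and 5.86 to 6.25 in controls, while the other 9 genes differ by at most 0.32 between group means.

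Markers of visceral endoderm, the extraembryonic layer that covers an EB, were measured beside these genes. The 11 measured markers (of 12 listed) had a summed linear signal, in log2, of 10.56 to 10.95 with AgNPs, 9.48 to 9.76 with Ag+ and 10.68 to 11.01 in controls. The Ag+ arrays were thus below all others, and 7 of the 11 markers were lower with Ag+ than in controls, led by the endocytic receptor Cubn at −3.35, where 2.28% of all named probe sets passed in either direction. The other 4 did not pass: Foxa2 was at 0.38, Afp at −0.07, Apoa1 at −0.10 and Apoa4 at −0.30. All of these calls but that of Rhox5 held whichever array was left out. The same 7 were higher with AgNPs than with Ag+, a comparison in which 0.509% of all named probe sets passed. There the calls of Apob, Cubn and Dab2 held whichever array was left out and those of the other 4 did not. With AgNPs 0 of 11 passed against control in limma (2 at an unadjusted p under 0.05). The part of these cells in the Runx1 result was not tested.

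Etv2, the factor at the head of the program, read 4.75, 4.70 and 4.65 with AgNPs, 4.73, 4.83 and 4.75 with Ag+, and 4.85, 4.98 and 4.82 in controls. All 3 AgNP arrays lay below the 3 controls, whereas the Ag+ arrays overlapped both other groups. AgNP minus control was −0.19 (95% interval −0.33 to −0.04, limma adjusted p = 0.49), and Ag+ minus control was −0.12 (adjusted p = 0.48).

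Tal1, a bHLH factor needed for the first blood cells, read 4.70, 4.92 and 4.92 with AgNPs, 5.06, 5.17 and 4.92 with Ag+, and 4.76, 4.92 and 4.92 in controls. Its value was identical to the last deposited digit on 5 of the 9 arrays, at 4.92, and the groups overlapped or touched there. Tal1 differed from control by −0.02 with AgNPs (adjusted p = 0.96) and by 0.18 with Ag+ (adjusted p = 0.41), and with arrays centred on their median the log2 difference with AgNPs was 0.0095. Its partner Lmo2, a LIM protein that bridges Tal1 and the GATA factors, read 5.77, 5.78 and 5.75 with AgNPs, 5.73, 5.91 and 6.00 with Ag+, and 5.64, 5.57 and 5.69 in controls. All 6 silver-exposed arrays lay above all 3 controls for Lmo2. Ag+ minus control was 0.25 for Lmo2 (95% interval 0.08 to 0.42, limma adjusted p = 0.17), and AgNP minus control was 0.13 (adjusted p = 0.66).

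Gata2, which acts in early blood progenitors and endothelium, read 4.16, 4.28 and 4.27 with AgNPs, 4.00, 4.27 and 4.24 with Ag+, and 4.27, 4.68 and 4.51 in controls. Control replicate 1 lay with the silver-exposed arrays and the other two controls lay above them. Ag+ minus control was −0.32 (95% interval −0.57 to −0.07, limma adjusted p = 0.24) and AgNP minus control −0.25 (adjusted p = 0.59). Gata1, the factor that drives red cells and megakaryocytes, read 5.01, 5.00 and 4.97 with AgNPs, 5.42, 5.18 and 5.16 with Ag+, and 5.27, 4.98 and 4.94 in controls. For Gata1 the 3 Ag+ arrays lay above the 3 AgNP arrays, and the controls spanned the AgNP range and part of the Ag+ range. AgNP minus Ag+ was −0.26 for Gata1 (limma adjusted p = 0.51), and its differences from control were −0.07 with AgNPs (adjusted p = 0.86) and 0.19 with Ag+ (adjusted p = 0.45).

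The ETS factors Fli1 and Erg act in both blood stem cells and endothelium. Fli1 read 4.99, 5.16 and 5.19 with AgNPs, 5.16, 5.28 and 5.16 with Ag+, and 5.14, 5.16 and 5.21 in controls. Erg read 4.13, 4.09 and 4.14 with AgNPs, 4.09, 4.01 and 4.00 with Ag+, and 4.15, 4.09 and 4.09 in controls. The groups overlapped or touched for both genes. Fli1 differed from control by −0.06 with AgNPs (limma adjusted p = 0.83) and by 0.03 with Ag+ (adjusted p = 0.90). Erg differed from control by 0.01 with AgNPs (adjusted p = 0.98) and by −0.08 with Ag+ (adjusted p = 0.57). Each of the 2 genes carried 1 identical value on 4 arrays.

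Of the junction genes, Cdh5, the cadherin that defines endothelium, read 5.00, 5.15 and 5.15 with AgNPs, 5.42, 5.32 and 4.89 with Ag+, and 4.93, 4.94 and 5.15 in controls. The Ag+ arrays held both the highest and the lowest Cdh5 value, with an SD of 0.28 that exceeded its difference of 0.20 from control (limma adjusted p = 0.54), and AgNP minus control was 0.09 (adjusted p = 0.86). Pecam1 read 4.85, 4.85 and 4.72 with AgNPs, 4.85 on all 3 arrays with Ag+, and 4.85, 5.26 and 4.95 in controls. The same Pecam1 value stood on 6 of the 9 arrays, so that the SD among the Ag+ arrays was 0. Pecam1 differed from control by −0.21 with AgNPs (adjusted p = 0.61) and by −0.17 with Ag+ (adjusted p = 0.50). Identical values on 4 or more arrays occurred in 4 of the 10 genes and in 16.7% of all named probe sets.

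For the 9 genes other than Runx1, the 95% intervals, which are not adjusted for the number of genes, give the size of change the arrays leave room for on this signal scale. No interval reached beyond 1.42-fold in either direction for AgNP minus control, 1.49-fold for Ag+ minus control or 1.40-fold for AgNP minus Ag+. The largest of these differences between means were 0.25, 0.32 and 0.26 on the log2 scale. A miss of the threshold does not show that the conditions were equal for these genes.

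**Figure D2:**
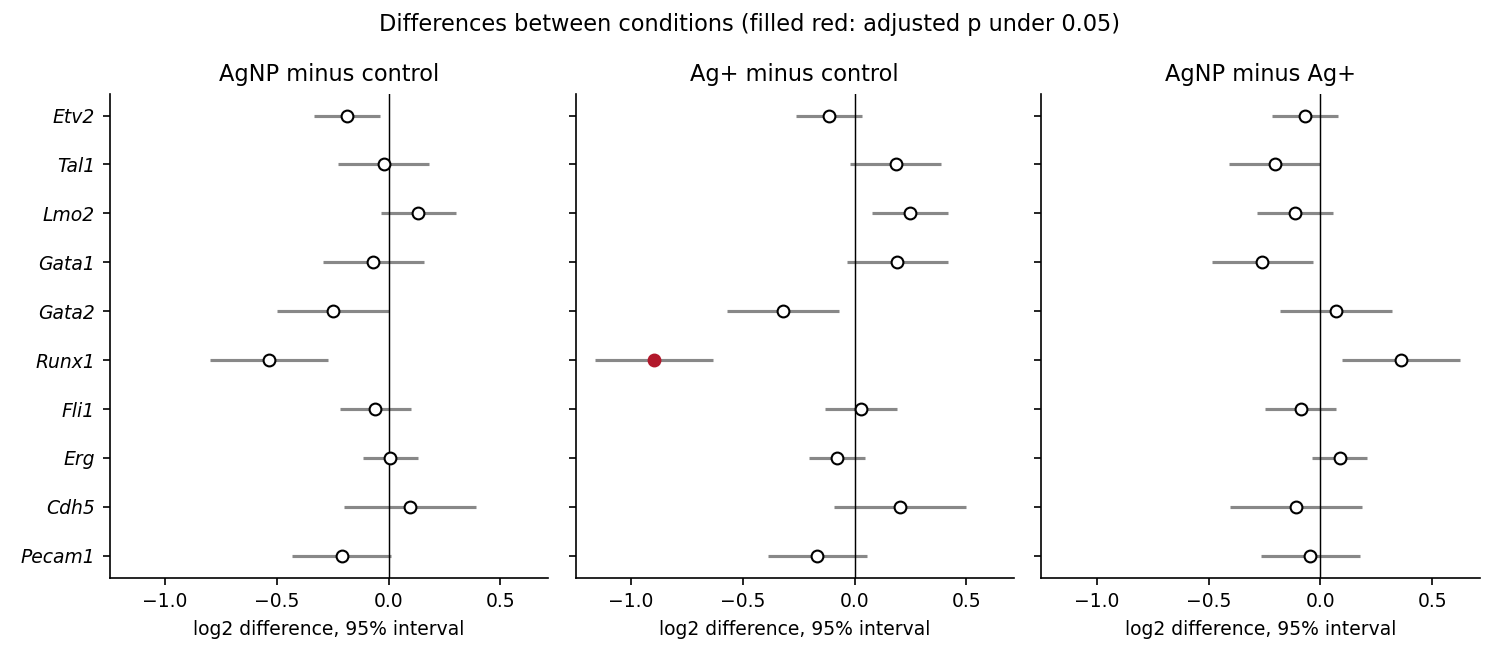
Log2 difference between group means for each of the 10 genes, with 1 panel for each of the 3 comparisons. Points are differences, lines are 95% intervals, and filled red marks an adjusted p under 0.05, reached by Runx1 alone, at −0.90 for Ag+ minus control.

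The genes whose values most resembled those of Runx1 over the 9 arrays were sought among 11543 genes with a mean signal of at least 5. Likeness was the mean absolute difference between the deviations of 2 genes from their own 9-array means, with a median of 0.32 over all genes compared. The mean absolute deviation of Runx1 itself was also 0.32, which is the score of a gene that does not vary. The closest were Amot at 0.057, Fgf3 at 0.067, Six2 at 0.092, Bmp2 at 0.097 and Man1c1 at 0.098. Amot encodes a junction-associated regulator of Hippo signalling, Fgf3 and Bmp2 encode secreted growth factors, Six2 a homeobox factor and Man1c1 a mannosidase of the Golgi. Like Runx1, each lay highest in controls, between with AgNPs and lowest with Ag+. The 5 were picked for this likeness, so it is a description without a test.

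**Figure D3:**
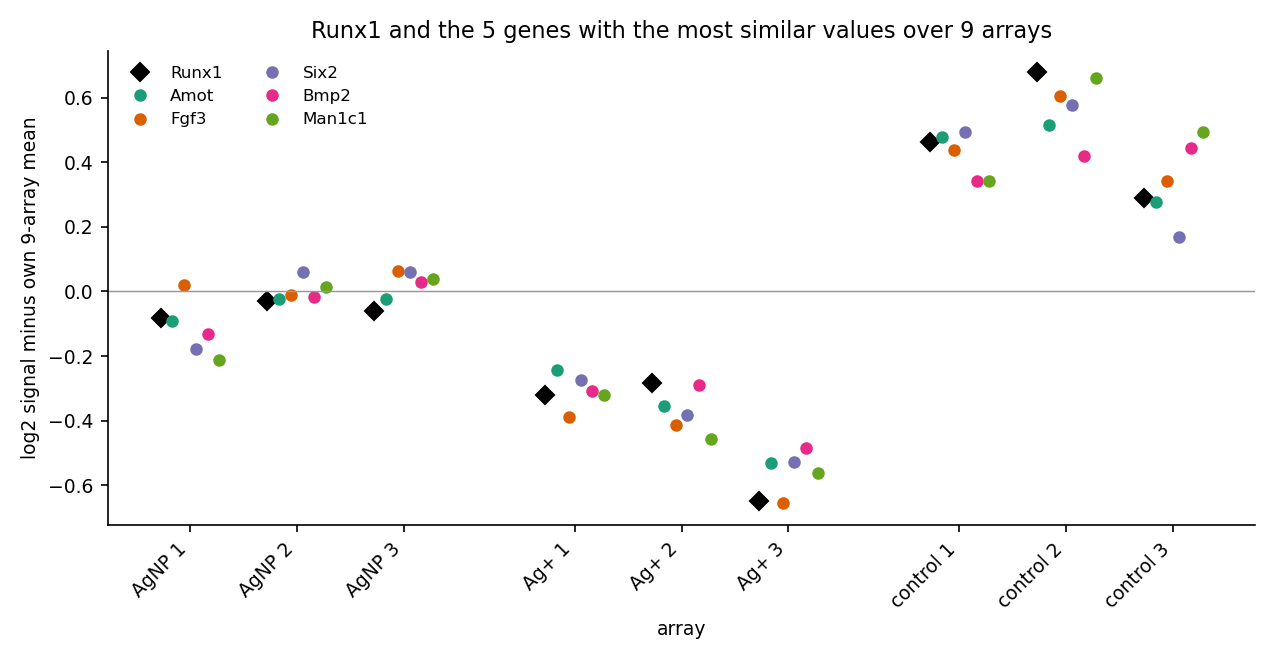
Deviation of each array's log2 signal from the gene's own 9-array mean, for Runx1 (black diamonds) and the 5 genes closest to it, by array in the order AgNP, Ag+ and control. All 6 genes lie above their mean on the 3 control arrays and below it on the 3 Ag+ arrays.

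Genes related to the 10 by family or lineage, and markers of other cell types, were described from 10 lists with 143 measured genes. The lists were chosen with earlier results of these data known. Of the 143 genes, 0 passed in limma for AgNP minus control, 29 for Ag+ minus control and 13 for AgNP minus Ag+. Over all named probe sets, 0.0868%, 2.28% and 0.509% passed. For AgNP minus control, 23 of the 143 had an unadjusted p under 0.05 in limma, a rule that 8.44% of all named probe sets passed. The methods' t-test after adjustment gave 0 in all 3 comparisons. Among 26 other endothelial genes, Ag+ minus control gave 1 gene higher and 2 lower. Kdr, the VEGF receptor of the mesoderm from which both lineages arise, averaged 8.41 ± 0.24 with AgNPs, 7.33 ± 0.28 with Ag+ and 9.20 ± 0.18 in controls (SD, n = 3 each). Its log2 difference Ag+ minus control was −1.87 (limma adjusted p = 0.00051), and AgNP minus Ag+ was 1.09 (adjusted p = 0.031). AgNP minus control was −0.79 and did not pass (limma adjusted p = 0.20). The paper, which used an unadjusted p, lists Kdr among the genes changed by AgNPs as well. The Kdr call against control held whichever array was left out, but the one between the silver treatments was lost without AgNP replicate 2 or 3, Ag+ replicate 2 or 3, or control replicate 1 or 2, at 0.92 to 1.22.

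Flt1, the other VEGF receptor of early vessels, was lower with Ag+ by 0.56 on the log2 scale (limma adjusted p = 0.048), a call lost on leaving out any array but control replicate 3, at −0.69 to −0.44 over the 9 arrays left out in turn. Ramp2, a receptor accessory protein of vessels, was higher by 0.39 (adjusted p = 0.044), and that call was lost without any one of the 9 arrays, at 0.32 to 0.43, and under the replicate block (adjusted p = 0.080). Of the 26 genes, 16 had a 9-array mean below the median of 5.06 over all named probe sets and 10 above it. Among those below were Emcn at 2.59, Cldn5 at 3.89, Tek at 4.08, Tie1 at 4.23 and Cd34 at 4.56, and among those above were Sox17 at 7.46 and Eng at 6.44.

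Over all named probe sets, 2.28% passed for Ag+ minus control. In the blood lists, 0 of 9 erythroid genes (1 at an unadjusted p under 0.05) and 1 of 19 other blood genes passed with Ag+ in limma. The gene that passed was Zfpm1, the GATA1 cofactor known as FOG1, which was lower at −0.58 (limma adjusted p = 0.0059). Cbfb, the partner subunit that Runx1 needs to bind DNA firmly, had −0.25 (adjusted p = 0.11), and Kit, the stem cell factor receptor, had 0.24 (adjusted p = 0.32). The 9-array mean lay below that median for 7 of the 9 erythroid and 11 of the 19 other blood genes. Among those below were the embryonic globins Hbb-bh1, Hbb-y and Hba-x, at 2.52, 3.14 and 2.72, and Ptprc, the pan-blood marker CD45, at 2.73, and among those above were Epor at 5.72 and Gfi1b at 5.24. The files give no detection call for a probe set.

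Within the families, 1 of 21 other ETS genes was higher and 3 were lower with Ag+ than in controls, against 2.28% of all named probe sets. Ets2 was higher by 0.80 (limma adjusted p = 0.00052) and Ets1 lower at −0.70 (adjusted p = 0.0010), both held whichever array was left out. Elf3 and Elf4 were lower at −0.76 and −0.38, with calls lost on leaving out any array but control replicate 3 for Elf3 (−0.94 to −0.62) and any but AgNP replicate 1 or control replicate 3 for Elf4 (−0.45 to −0.32). Of 9 other GATA, RUNX, TAL and LMO genes, Gata4 and Gata6, factors of endoderm and heart, were lower at −1.03 (adjusted p = 0.00051) and −0.59 (adjusted p = 0.018), and 0 were higher. Leaving out Ag+ replicate 1, Ag+ replicate 2 or control replicate 2 lost the Gata6 call (−0.71 to −0.49 over the arrays left out). Between the silver treatments, Ets2 was lower with AgNPs than with Ag+ at −0.47 and Gata4 was higher at 0.62, and both calls were lost on leaving out 1 of several arrays, including every AgNP array.

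In the mesoderm list, 10 of 19 measured genes passed with Ag+, with 3 higher and 7 lower, against 2.28% of all named probe sets. T (Brachyury), which the paper names among the genes changed by Ag+, was listed but not analysed here. Foxc2 and Foxc1, forkhead factors of paraxial mesoderm and vessels, were higher at 2.04 and 1.54, and Tbx6, a T-box factor of paraxial mesoderm, at 0.99. Hand1, a bHLH factor of extraembryonic and lateral mesoderm, was lower at −2.23 (limma adjusted p = 0.0016). Bmp4, the ligand that induces blood-forming mesoderm, was lower at −1.79 and was named here after its value had been seen. Of the 10 calls, 7 held whichever array was left out, and those of Eomes, Foxf1 and Smad1 did not. With AgNPs 0 of 19 passed against control in limma, and 8 did at an unadjusted p under 0.05. The shares over all named probe sets were 0.0868% and 8.44%. AgNP minus control was −0.99 for Hand1, −0.98 for Bmp4, 0.88 for Foxc2, 0.72 for Foxc1 and 0.61 for Tbx6, in the directions seen with Ag+. Hand1, Foxc1 and Foxc2 are listed by the paper, which used an unadjusted p, among the genes changed by AgNPs.

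**Figure D4:**
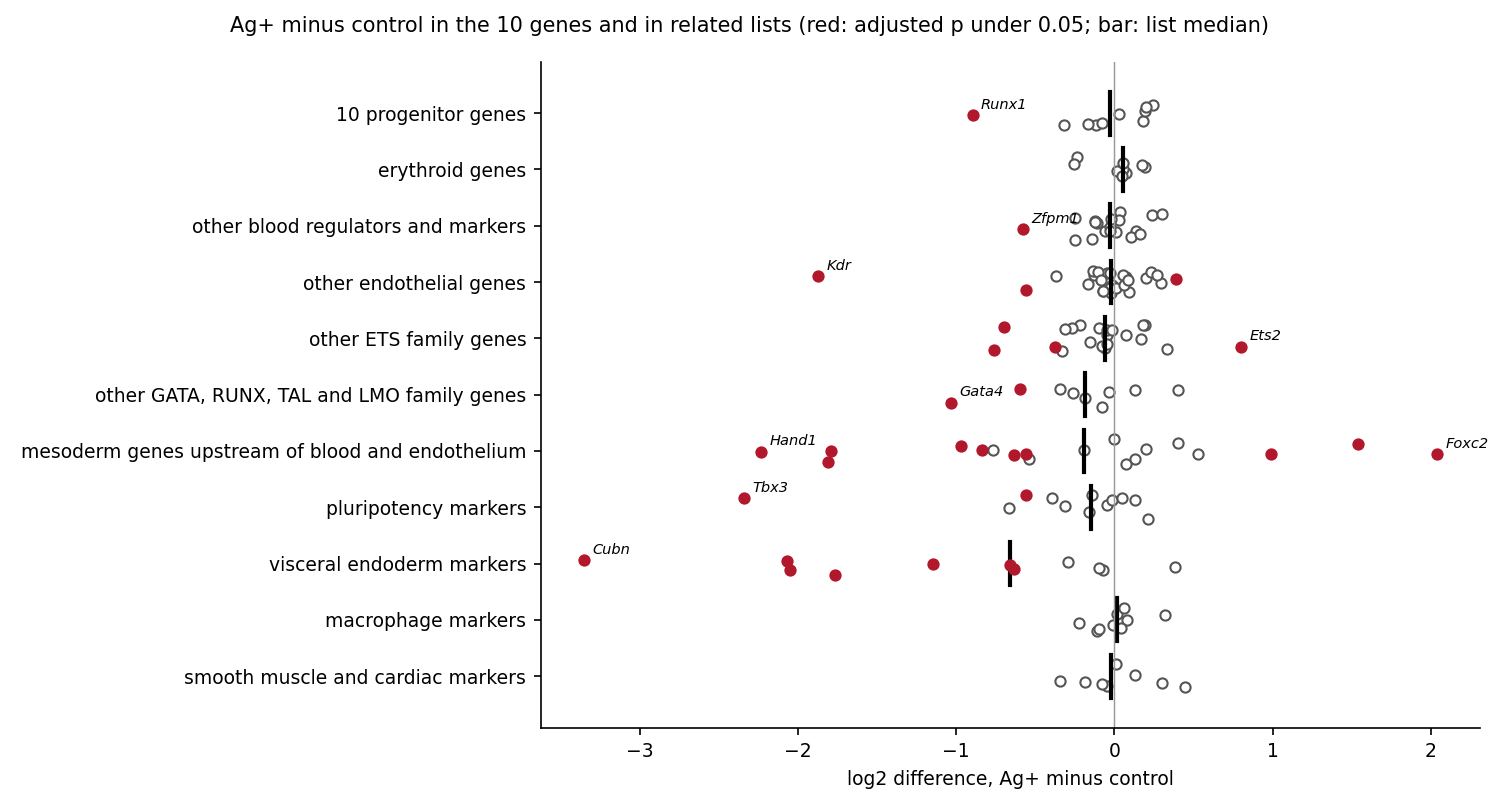
Log2 difference Ag+ minus control for the 10 progenitor genes and 10 related lists, with 1 point per gene, filled red where the adjusted p is under 0.05 and a bar at each list's median. Of the 10 genes Runx1 alone is red at −0.90, while the mesoderm list has 7 genes lower and 3 higher.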

How the data were processed

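RNA of 9 EB cultures was measured on Affymetrix Mouse Gene 2.0 ST arrays. The authors made the deposited log2 values with RMA in Affymetrix Expression Console 1.3, which corrects background, normalizes arrays by quantiles and summarises probes by median polish, and no raw intensities were used here. The values were used as deposited (41345 probe sets, 25341 named, 23525 with 1 gene). Arrays have no read depth, so their number limits the precision. The methods' filter on unexpressed probe sets was not applied.

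For all named probe sets, limma estimated 1 mean per group from the 9 arrays (R 4.3.3, limma 3.58.1, package data.table in version 1.17.8), with two-sided tests of each pair of groups and Benjamini-Hochberg adjustment over the 25341. The study's methods used a fold of 1.5 and an unadjusted p of 0.05, which served as an alternative. The fit was tested on simulated data. Members, lists and rules were chosen with earlier results of these data known. Named were all 10 members, the 5 genes most like a member, and up to 4 genes per list with the smallest p for Ag+ minus control. Bmp4, the markers given by their mean and the remaining visceral endoderm and pluripotency genes were named after their values were seen. Of 151 list entries, 8 were not analysed here. Replicate labels name biological replicates of 1 line. The limma p-values weigh differences against the spread between these replicates, pooled over the 3 groups and moderated over all named probe sets. Promoter sequences are those of RefSeq (GRCm38.p6).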

Additional observations from a re-analysis of the deposited data

How the results depend on the processing

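The count of the 10 genes that passed was the same under every alternative, with an exception. In the setting of a mean of at least 5, only the 5 members that reach this mean were tested. The exception was the methods' t-test, adjusted by Benjamini-Hochberg, which gave 0 for Ag+ minus control, where Runx1 had an adjusted p of 0.46. In all other settings Runx1 passed, with adjusted p between 0.0017 and 0.036 and differences of −0.99 to −0.78. Between groups, deviations of same-numbered arrays correlated at −0.056 to 0.23 and those of differently numbered arrays at −0.27 to 0.19. Whether the replicate numbers pair the arrays was not tested. With the replicate block in limma the counts were 0, 1 and 0, with an adjusted p of 0.0027 for Runx1 with Ag+ and 0.13 with AgNPs. Of the calls in the lists, the replicate block lost that of Ramp2 (adjusted p = 0.080) and no other.

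Signs turned for genes that had not passed. With arrays centred on the median, Tal1 was 0.0095 for AgNP minus control. Without control replicate 3 and AgNP replicate 1 together, chosen after seeing the data, AgNP minus control was −0.0071 for Erg, 0.025 for Fli1, 0.078 for Tal1 and −0.14 for Gata1, the last with its sign kept. On leaving out each array, AgNP minus control ran from −0.0020 to 0.027 for Erg, −0.098 to 0.0025 for Fli1, −0.13 to 0.036 for Gata1 and −0.073 to 0.052 for Tal1. Likewise Ag+ minus control ran from −0.012 to 0.051 for Fli1, and AgNP minus Ag+ from −0.016 to 0.12 for Gata2.

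The background count of named probe sets moved more. For AgNP minus control the 22 became 4 with all probe sets, 42 at a mean of at least 5, 12 with centred arrays, 0 with only the 2 groups and 3 to 36 on leaving out each array. For Ag+ minus control the 579 became 345 with all probe sets and 321 with only the 2 groups, and 282 without control replicate 2. Centring changed its split to 269 higher and 292 lower, against 206 and 373. For AgNP minus Ag+ the 129 became 47 with all probe sets, 204 at a mean of at least 5 and 37 at the fewest on leaving out 1 array. The methods' t-test gave 0 in all 3 comparisons, and the cause was not tested. With all probe sets, or with only the 2 groups, the calls of Flt1, Ramp2, Elf3, Elf4, Gata6, Eomes, Smad1, Klf4 and Rhox5 for Ag+ minus control were lost.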

Other observations

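Lists of other cell types that EBs can hold were measured beside the progenitor genes. Over all named probe sets, 2.28% passed for Ag+ minus control. Of 12 pluripotency markers, Tbx3 and Klf4 were lower with Ag+ than in controls, at −2.34 (limma adjusted p = 0.00030) and −0.56 (adjusted p = 0.023), and the Klf4 call was lost without Ag+ replicate 2, Ag+ replicate 3 or any control (−0.65 to −0.47). Tbx3 also serves early mesoderm and endoderm. The rest of the list did not pass for Ag+ minus control and went both ways. Sox2 (0.21), Dppa3 (0.13) and Dppa5a (0.05) were higher, and the remaining genes lower, among them Pou5f1 (−0.16) and Nanog (−0.66). Of 9 macrophage markers and 8 smooth muscle and cardiac markers, 0 passed in limma in any of the 3 comparisons. The shares of all named probe sets were 0.0868% for AgNP minus control, 2.28% for Ag+ minus control and 0.509% for AgNP minus Ag+. At an unadjusted p under 0.05 at most 2 of a list passed, against 8.44%, 13.8% and 8.31% of all in the same order. The macrophage list had a summed log2 signal of 8.29 to 8.37 with AgNPs, 8.21 to 8.25 with Ag+ and 8.24 to 8.30 in controls.

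The genes closest to Lmo2 over the 9 arrays were Gm16982, 1810046K07Rik, Aldh1b1, Itgb3bp and Vash2, at 0.035 to 0.040. Those closest to Gata1 were Nr6a1, Ogt, Tmem260, Dph7 and Gucy1a2, at 0.059 to 0.064. Neither member passed a test, and both varied little, so a gene that does not vary would score 0.094 for Lmo2 and 0.14 for Gata1.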
